A study of Arabidopsis thaliana with 36 samples.

Results

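A set of 126 genes was drawn whose transcripts were lower in Arabidopsis roots 180 min after seedlings were moved to fresh nitrate medium. After 15 min they were higher, unchanged or lower by less than 0.3 on the log2 scale. They come from 17545 genes with a mean of at least 2 counts per 1e6 counts of the library (CPM), of 32833 gene identifiers in the tables. For each gene, d at a given time is the mean log2(CPM + 1) of the 8 libraries taken then minus that of the 4 libraries taken at 0 min. At 180 min, 1.44% of the 17545 genes had d of -0.8 or less. A member has d at 180 min of -0.8 or less, a drop to 0.57 of the starting value of CPM + 1 or below, and d at 15 min above -0.3. The rule names 10 clock, iron, nitrogen and other genes to be left out, and 2 of them, IRT1 (AT4G19690) and NRT2.4 (AT5G60770), met its thresholds. Values at 0, 15 and 180 min chose the members, so differences from 0 min are given below as descriptions with no test. Tested were the difference between nitrate concentrations and the step from 45 to 90 min, neither of which set a threshold of the rule. That step still lies inside the span from 15 to 180 min over which every member must fall. Lower levels of members across it are thus in part built in.

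Seedlings of the ecotype Col-0 grew for 7 days on mesh over medium with 1 mM KNO3, at 22 °C in 16 h of light and 8 h of dark. At 2 h after dawn they went to new plates with 1 mM or 10 mM KNO3, and roots were frozen 15, 45, 90 or 180 min later. In the 0 min group, also on 1 mM KNO3, the mesh was only lifted and put back, which gave them the handling without the new plate. The design has 36 poly-A RNA libraries in 9 groups of 4, each replicate numbered in the sample titles and pooling 2 plates per time point. All groups are wild type, and all had grown on 1 mM KNO3. Time since the move, new medium and time of day all differ between 0 min and the later groups and cannot be told apart there.

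Nitrate is both a nutrient and a signal for roots, and its supply sets the expression of genes for uptake, assimilation and lateral root growth. The plant circadian clock runs in roots as well as shoots: morning-expressed MYB-like factors work with LNK coactivators early in the day and give way to evening genes later. Roots also make flavonols, suberin and a cell wall that is loosened by expansins and glucanases as cells grow.

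The libraries held 1376404 to 7512410 counts (median 5126926). Markers of root tissues were detected throughout, with none of their genes at 0 in all libraries, and 8 genes of shoot photosynthesis summed to 30.4 to 65.2 CPM per library. The median of summed marker levels was 333 CPM at 0 min and 280.0 CPM at 180 min for 4 root hair genes. For 6 endodermis genes the medians were 530.0 and 592 CPM, and for 5 xylem genes 396 and 366 CPM. For 2 phloem genes they were 67.9 and 117 CPM, for 4 root tip genes 65.5 and 58.7 CPM, and for 3 root cap genes 23.2 and 22.2 CPM. Only for phloem did the libraries at 0 min (59.9 to 73.0 CPM) and 180 min (99.9 to 127 CPM) not overlap. The part of marker levels in the results was not tested. In whole roots, fewer cells of a type and less RNA per cell cannot be told apart. The library of replicate 4 at 45 min on 1 mM KNO3, the shallowest at 1376404 counts, stood apart from the rest, with a median correlation to other libraries of 0.923 against 0.948 for the next lowest, and calls that were lost without it are named where they are given.

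Stretches of 300 bases upstream of the annotated gene start were read for all 126 members from the RefSeq assembly TAIR10.1. The G-box, CACGTG, a palindromic element bound by basic helix-loop-helix and basic leucine zipper factors in light and abscisic acid responses, was in 15.1% of members (19 of 126) and in 8.0% of the 17536 expressed genes with such a stretch. A few promoters that hold it are shown because they belong to genes with large or abundant differences in separate roles: the clock coactivator LNK3, the light-induced ELIP1, the chalcone synthase gene TT4 and the cell cycle inhibitor gene SMR5. Capitals mark the G-box.
LNK3, chr3:3923215-3923514, plus strand: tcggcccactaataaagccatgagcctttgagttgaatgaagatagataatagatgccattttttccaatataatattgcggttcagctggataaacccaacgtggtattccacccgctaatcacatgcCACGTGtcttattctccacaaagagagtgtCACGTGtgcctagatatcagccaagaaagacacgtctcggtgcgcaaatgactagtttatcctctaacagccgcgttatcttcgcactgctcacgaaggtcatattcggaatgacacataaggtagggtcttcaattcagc
ELIP1, chr3:8085670-8085969, minus strand: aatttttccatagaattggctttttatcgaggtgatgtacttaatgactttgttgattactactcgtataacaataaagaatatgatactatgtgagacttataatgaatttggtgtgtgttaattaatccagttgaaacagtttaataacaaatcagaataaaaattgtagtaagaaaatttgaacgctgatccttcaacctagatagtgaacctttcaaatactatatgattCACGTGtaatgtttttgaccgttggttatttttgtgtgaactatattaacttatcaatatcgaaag
TT4, chr5:4488176-4488475, plus strand: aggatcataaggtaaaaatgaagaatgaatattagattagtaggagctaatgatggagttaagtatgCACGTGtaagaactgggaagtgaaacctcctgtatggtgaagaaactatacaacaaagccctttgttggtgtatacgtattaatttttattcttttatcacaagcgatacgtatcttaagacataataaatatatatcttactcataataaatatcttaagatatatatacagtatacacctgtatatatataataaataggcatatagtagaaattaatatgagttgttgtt
SMR5, chr1:2305032-2305331, minus strand: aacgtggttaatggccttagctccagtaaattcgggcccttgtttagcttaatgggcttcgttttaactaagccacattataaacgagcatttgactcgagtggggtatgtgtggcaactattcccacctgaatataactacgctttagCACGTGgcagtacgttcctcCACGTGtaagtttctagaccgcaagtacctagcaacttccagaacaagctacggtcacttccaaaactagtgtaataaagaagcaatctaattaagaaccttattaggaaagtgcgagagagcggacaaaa

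LNK3 and SMR5 each have 2 copies, which begin 171 and 141 bases before the start in LNK3 and 151 and 131 bases before it in SMR5. ELIP1 and TT4 have 1 copy each, at 66 and 233 bases. The abscisic acid response element ACGTGGC, which shares the letters ACGTG with a G-box where they overlap, was in 10.3% of members and 4.1% of expressed genes, and 8 members held both. The W-box, the WRKY factor site, was in 20.6% of members as TTGACC and 27% as TTGACT, against 14.3% and 21.9% of expressed genes. The evening element AAAATATCT was in 1 member (0.8%) against 2.9%, site II (TGGGCC) in 8.7% against 17.8%, and the telo-box AAACCCT in 3.2% against 7.3%. Shares for the other motifs, in members and in expressed genes, were as follows: AAAAATCT 7.1% and 8.0%, AACAATCT 0.8% and 2.1%, CACATG 14.3% and 12.9%, GATAAG 15.9% and 14.2%, and GNATATNC 9.5% and 6.6%. Both strands were searched, no share was tested, and a match describes letters in this window rather than a bound site.

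The median of the 126 members went down gradually, while single members took different courses. Their median d was -0.05 at 15 min, -0.38 at 45 min, -0.63 at 90 min and -0.94 at 180 min, while the median over all 17545 expressed genes stayed between -0.075 and -0.058. The threshold of -0.8 was already reached by 13 members at 45 min, where 1.37% of expressed genes did so, and by 34 at 90 min, where 1.0% did. Applied without replicate 1 or without replicate 2, the rule gives sets in which 24 and 21 genes had reached it at 45 min. The count at 45 min also moved with other settings of the rule: it was 8 with a pseudocount of 2, 20 with a pseudocount of 0.5 and 32 on the 1 mM libraries alone. In 40 members it was reached at either of those times and in 86 at neither, so 86 were below it at 180 min alone of the 4 times. In 90 members d went down in order from 45 to 90 to 180 min, and the lowest of the 4 values was at 180 min in 106, at 90 min in 12 and at 45 min in 8. These shares rest on the same 4 libraries at 0 min that chose the members.

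**Figure D1:**
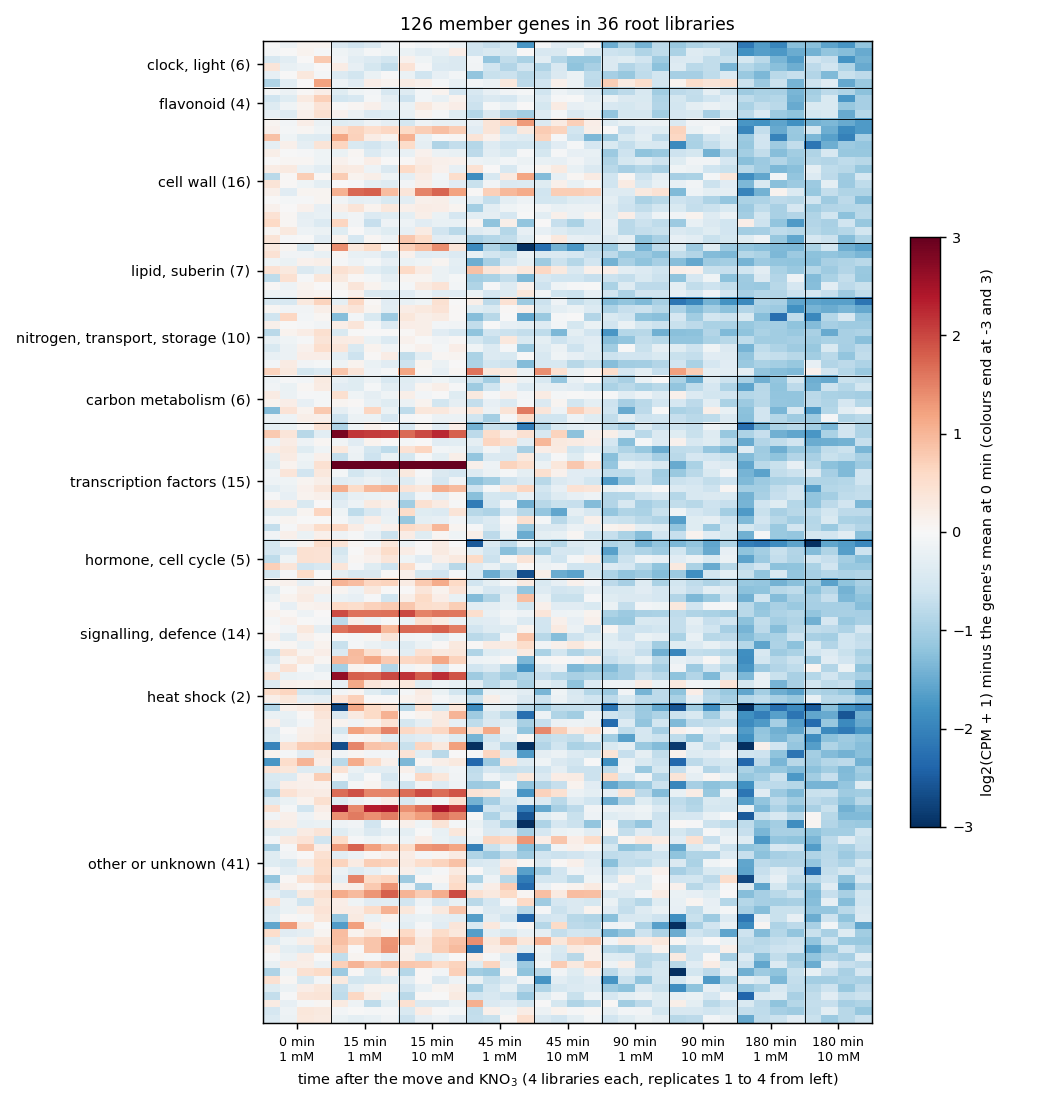
Each row is 1 of the 126 member genes, grouped by role (number of genes in brackets), and each column 1 of the 36 libraries; colour is log2(CPM + 1) minus the gene's mean at 0 min. The columns turn blue by steps from 45 to 180 min at both KNO3 concentrations, and a few rows, WRKY46 with the largest value (d of 3.89), are red at 15 min.

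At 180 min all 126 members were below 0 min on average at both concentrations, with a median d of -1.01 on 1 mM and -0.92 on 10 mM KNO3. The threshold of -0.8 was met by 119 members on 1 mM alone and by 100 on 10 mM alone. By replicate number, the median d at 180 min was -0.97, -0.89, -1.05 and -1.10 for replicates 1 to 4. In 121 members (96.0%) the mean of a replicate's 180 min libraries was lower than its 0 min library in each of the 4 replicates. This held for 20.5% of expressed genes, and in 5 members the mean was lower in 3 replicates. In 78 members (61.9%) all 8 libraries at 180 min lay below all 4 at 0 min, against 4.01% of expressed genes. The rule used these libraries, so the shares describe how cleanly the members separate.

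**Figure D2:**
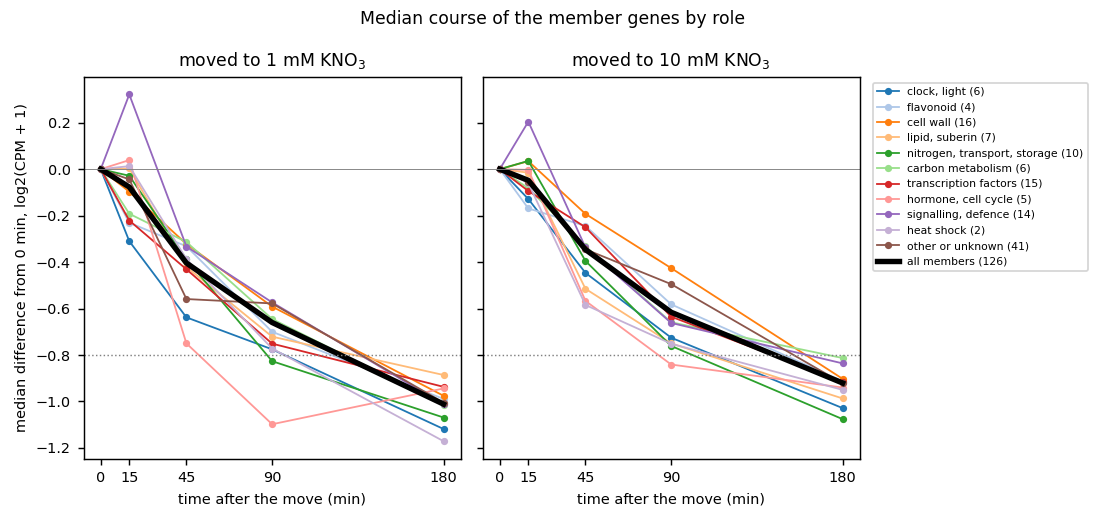
Median d (difference from 0 min in log2(CPM + 1)) of the members of each role against time after the move, for 1 mM (left) and 10 mM KNO3 (right); the thick line is the median of all 126 members and the dotted line the threshold of -0.8. The thick line ends at -1.01 on 1 mM and -0.92 on 10 mM.

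Clock, light and chloroplast genes numbered 6, with a median d of -1.07 at 180 min. LNK2 (AT3G54500) and LNK3 encode coactivators of the morning clock factors. LNK2 had 103, 107, 116 and 105 CPM in replicates 1 to 4 at 0 min. Its 8 libraries ranged from 55.5 to 81.8 CPM (median 65.6) at 90 min and from 29.9 to 46.4 CPM (median 37.3) at 180 min. The 2 sets do not overlap with those at 0 min, and the 180 min libraries are lower than all of those at 90 min. LNK3 (AT3G12320) had 38.5, 34.7, 41.5 and 41.6 CPM at 0 min and 8.04 to 16.6 CPM (median 12) at 180 min, again without overlap. A gene antisense to LNK3 holds 3144 reads over all libraries to its own 4255, and whether the counting used strand is not given in the sources used here, so reads of such pairs cannot be told apart. ELIP1 (AT3G22840), a photoprotective chlorophyll-binding protein, had 81.2, 91.5, 116 and 199.8 CPM at 0 min and 33 to 78.9 CPM (median 54.5) at 180 min. The 0 min libraries differ among themselves more than for LNK2, and all 8 at 180 min are below them. Its relative ELIP2 had d of -0.92 at 180 min but 0.31 at 90 min. The B-box factor gene BBX19 and GUN5, the H subunit of magnesium chelatase, had d of -0.95 and -1.05.

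Of the 14 morning clock genes in the list used here, 13 could be tested and 5 were called lower at 90 min than at 45 min: the members LNK2 and LNK3, and CCA1, LHY and RVE8. Over all genes tested, 3.3% were called lower in that step. The call of LNK2 was lost without replicate 4 at 45 min on 1 mM KNO3 (-0.27, adjusted p = 0.102 by edgeR). CCA1, LHY and RVE8 are no members: d at 15 min was already -0.69, -0.66 and -0.72, and the rule also leaves out CCA1 and LHY by name. LNK1 (AT5G64170) had d of -0.50 at 15 min and -1.06 at 180 min, and LNK4 (AT5G06980) -0.01 and -0.79, so both miss 1 of the thresholds.

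Members assigned a flavonoid role here numbered 4. TT4 (AT5G13930), chalcone synthase, which makes the first committed step of flavonoid synthesis, had 348, 416, 494 and 607 CPM at 0 min. Its libraries held 397 to 555 CPM (median 480.4) at 15 min, 247 to 402 CPM (median 333) at 90 min and 159.8 to 333 CPM (median 248) at 180 min. The highest library at 180 min is below the lowest at 0 min. Chalcone isomerase TT5, the flavonol glucosyltransferase UGT78D2 and the UDP-rhamnose synthase RHM1 had d of -1.01, -0.86 and -1.03 at 180 min. RHM1 was the one of the 4 called lower at 90 than at 45 min by edgeR's quasi-likelihood test (log2 fold change -0.42, SE 0.10, adjusted p = 0.00392), while TT4 was not (-0.27, SE 0.12, adjusted p = 0.226). The flavonoid and phenylpropanoid list had 15 of 18 genes tested, and 2 were called lower in that step, F3H (-0.43) and FLS1 (-0.56), against 3.3% of all genes tested; both had d at 15 min below -0.3 (-0.37 and -0.38) and so are no members. PAL1, with d of -0.797 at 180 min, lies just outside the threshold.

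**Figure D3:**
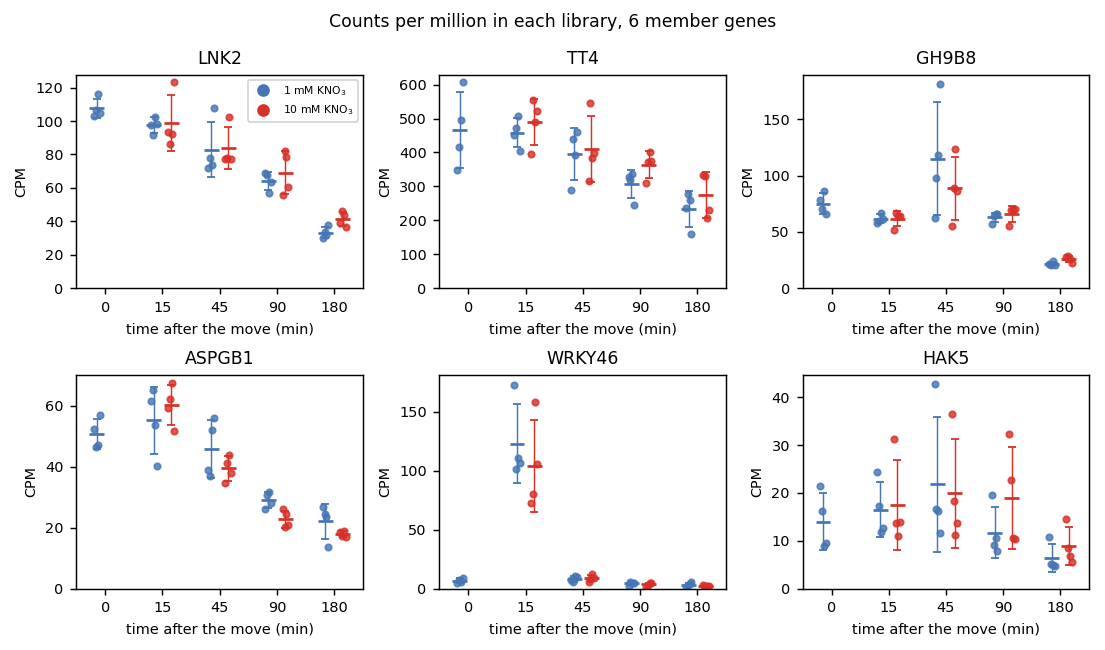
CPM in every library of 6 members against time after the move, blue for 1 mM and red for 10 mM KNO3; bars are the mean and SD of 4 libraries. LNK2, TT4, GH9B8 and ASPGB1 are lowest at 180 min, WRKY46 reaches 72.7 to 173 CPM at 15 min, and HAK5 spreads widely within groups.

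Cell wall genes were the largest group with a known role, 16, with a median d of -0.93 at 180 min. GH9B8 (AT2G32990), an endoglucanase of the GH9 family, had 78.6, 70.1, 86.5 and 65.6 CPM at 0 min. It held 55.4 to 182 CPM (median 93.4) at 45 min, 55.1 to 70.4 CPM (median 65.6) at 90 min and 20.6 to 28.6 CPM (median 23.3) at 180 min. Its highest library was thus at 45 min, replicate 4 on 1 mM KNO3, and the 180 min libraries are below all the others. It was called lower at 90 than at 45 min (-0.64, SE 0.12, adjusted p = 0.000585), also without that library, as was its relative GH9C2 (-0.64, SE 0.15, adjusted p = 0.00465). Among the expansins, wall-loosening proteins, EXPA15 had 185, 163, 159 and 150.3 CPM at 0 min, 61.0 to 114 CPM (median 82.6) at 90 min and 67.0 to 117 CPM (median 79.6) at 180 min. Its level at 90 min was already that of 180 min, and the step from 45 min was called (-0.60, SE 0.12, adjusted p = 0.000754). EXPB3, with 459.7, 362, 320.2 and 285 CPM at 0 min, instead held 222 to 414 CPM at 90 min and 136 to 288 CPM (median 164) at 180 min, so 7 of the 8 libraries at 180 min were below the lowest at 0 min. EXPA4 and EXPA6 had d of -0.87 each at 180 min. The pectin methylesterase PME41 (-0.89), the xyloglucan galactosyltransferase XLT2 (-0.39) and EXPA6 (-0.36) were also called lower at 90 than at 45 min, and without replicate 4 at 45 min on 1 mM KNO3 the calls of XLT2 (-0.37, adjusted p = 0.0716 by edgeR) and EXPA6 (-0.33, adjusted p = 0.0685) were lost. The wall-associated kinase-like genes WAKL4 and WAKL5, neighbours on chromosome 1, had d of -1.36 and -1.35 at 180 min, and reads of such tandem copies can be split between them by the counting. PG2, MAN7, TBL4, TBL42, CASP5 and AT4G16980 made up the group, with d from -0.82 (MAN7) to -1.18 (CASP5).

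The 7 lipid and suberin genes had a median d of -0.86 at 180 min. XPL1 (AT3G18000), the phosphoethanolamine methyltransferase of phosphatidylcholine synthesis, had 404, 274, 275 and 255 CPM at 0 min, 116 to 178 CPM (median 136) at 90 min and 114 to 165 CPM (median 128) at 180 min. FAR4, a fatty acyl-CoA reductase of suberin synthesis, had 74.3, 70.4, 88.5 and 92.0 CPM at 0 min and 27.4 to 40.6 CPM (median 36.2) at 90 min. Neither gene's libraries at 90 or 180 min overlap those at 0 min. Both were called lower at 90 than at 45 min, XPL1 at -0.60 and FAR4 at -0.42, as were the phospholipase gene NPC6 (-0.61) and the patatin-like gene PLP6 (-0.50). PLP6 lost the call without replicate 4 at 45 min on 1 mM KNO3 (-0.46, adjusted p = 0.0613 by edgeR). MGD2, a galactolipid synthase of phosphate-starved roots, was at -0.80 by 45 min and -0.83 at 180 min. The acylhydrolase gene DLAH had d of 0.72 at 15 min, -1.69 at 45 min and -1.21 at 180 min, and LACS2 -0.80 at 180 min. In the suberin list 3 of 11 genes tested were called lower between 45 and 90 min, FAR4, CYP86B1 and KCS2, against 3.3% of all genes tested.

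Genes of nitrogen assimilation, transport and storage numbered 10, with a median d of -1.05 at 180 min. ASPGB1 (AT3G16150), an asparaginase, which releases ammonium from asparagine, had 52.4, 46.5, 47.0 and 56.7 CPM at 0 min. Its libraries held 40.3 to 67.4 CPM (median 60.3) at 15 min, 34.6 to 55.9 CPM at 45 min, 20.1 to 31.7 CPM (median 26) at 90 min and 13.6 to 26.8 CPM (median 18.7) at 180 min. The 90 min libraries are all below the 45 min ones, and the step was called (-0.73, SE 0.11, adjusted p = 2.1e-05, lower in 4 of 4 replicates). GLN1;4 (AT5G16570), a cytosolic glutamine synthetase, had 69.0, 74.6, 79.3 and 106 CPM at 0 min, 32.9 to 48.4 CPM (median 38.3) at 90 min and 33.4 to 47.1 CPM (median 39.7) at 180 min. It had reached its 180 min level by 90 min, and the step from 45 min was called (-0.68, SE 0.12, adjusted p = 0.000207). AT2G36630, annotated as a sulfite exporter family protein, had 4.81, 4.83, 8.95 and 11.9 CPM at 0 min and 0.776 to 3.26 CPM (median 1.69) at 180 min. Its step from 45 to 90 min had the most negative estimate among the members (-1.54, SE 0.27, adjusted p = 0.000103). The major facilitator gene AT2G39210 was called lower too (-0.38). HAK5 (AT4G13420), a high-affinity potassium transporter, had 21.4, 16.3, 8.81 and 9.57 CPM at 0 min and 4.67 to 14.5 CPM at 180 min, so the groups overlap. Replicates 1 and 2 were higher than 3 and 4 before the move, and its d of -0.81 rests on values with that spread. The ferritin gene FER1, the boron transporter BOR4, the sugar transporter SWEET13, the ABC transporter ABCG22 and the ion channel CNGC3 had d between -0.89 and -1.15 at 180 min.

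Of the 6 carbon metabolism genes, AT5G04120, a phosphoglycerate mutase family gene, had the highest mean of all members at 1046 CPM. It had 1301, 1422, 1377 and 1735 CPM at 0 min, 1047 to 1326 CPM (median 1203) at 15 min, 522 to 1469 CPM (median 879) at 90 min and 509 to 1005 CPM (median 693) at 180 min. All 180 min libraries are below those at 0 min, while at 90 min the ranges overlap, and its step from 45 min was not called (-0.26, adjusted p = 0.477). The sucrose phosphate synthase SPS2F (-0.44), the pyrophosphatase PPa2 (-0.40) and the malic enzyme NADP-ME1 (-1.12, SE 0.31) were called lower at 90 than at 45 min. PPa2 (-0.36, adjusted p = 0.0666 by edgeR) and NADP-ME1 (-0.94, adjusted p = 0.0653) lost the call without replicate 4 at 45 min on 1 mM KNO3, and the mean of NADP-ME1 was 3.9 CPM. The sucrose synthase SUS3 and the inositol phosphate synthase MIPS1 had d of -0.82 and -0.97 at 180 min.

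The 15 transcription factor genes had a median d of -0.94 at 180 min. NLP3 (AT4G38340), of the NIN-like proteins, the family that holds nitrate-sensing regulators, had 48.1, 50.4, 31.7 and 37.4 CPM at 0 min, 14.1 to 25.5 CPM (median 19.9) at 90 min and 14.3 to 32.5 CPM (median 18.6) at 180 min. At 90 min all libraries are below those at 0 min, at 180 min 7 of 8, and the step from 45 to 90 min was called (-0.83, SE 0.18, adjusted p = 0.00274). ANT, an AP2-type factor of organ growth, was called too (-0.49, SE 0.13), as was the homeodomain-like gene AT1G14600 (-0.89). ANT lost the call without replicate 4 at 45 min on 1 mM KNO3 (-0.39, adjusted p = 0.0569 by edgeR). WRKY46 (AT2G46400), a stress and defence factor, had 4.81, 6.95, 5.43 and 9.23 CPM at 0 min and 72.7 to 173 CPM (median 106) at 15 min. By 45 min it held 5.54 to 12 CPM, and at 180 min 1.53 to 5.26 CPM (median 2.83). It thus passed through a peak before it was lower than at the start, and its step from 45 to 90 min was called (-1.07, SE 0.22, adjusted p = 0.00117). The homeobox genes HB17 and HB40, the NF-Y subunit genes NF-YB2 and NF-YA4, the heat shock factor genes HSFB2A and HSFB2B, NAC074, TCP9, AT1G19490, AT1G06170 and AT1G77640 had d from -0.80 (HB40) to -1.17 (HB17) at 180 min.

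Of the 5 hormone and cell cycle genes, SMR5 (AT1G07500), a cyclin-dependent kinase inhibitor of the SIAMESE family, had the second lowest d of all members. It had 10.7, 14.8, 16.9 and 23.8 CPM at 0 min, 4.72 to 8.44 CPM (median 6.43) at 90 min and 0.867 to 4.73 CPM (median 3.53) at 180 min, a d of -2.0. No library at 90 or 180 min reaches the lowest at 0 min. An antisense neighbour holds 5479 reads to its 1716, and that gene's own d was -0.21. The D-type cyclin CYCD3;1 had 54.0, 42.3, 21.6 and 23.2 CPM at 0 min and 13.3 to 21.7 CPM at 180 min, where 6 of 8 libraries are below the lowest at 0 min. GA2OX1, which inactivates gibberellins, was at -1.11 by 45 min, -1.03 by 90 min and -0.89 at 180 min. GASA5, a gibberellin-regulated peptide gene, and EFE, an ACC oxidase that makes ethylene, had d of -1.03 and -0.98.

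The 14 signalling and defence genes had the highest median at 15 min, 0.18. MSS3 (AT2G43290), a calmodulin-like protein, had 146, 139.8, 123 and 138 CPM at 0 min, 388 to 538 CPM (median 423) at 15 min, 118 to 195 CPM (median 127) at 45 min, 63.8 to 79.8 CPM (median 70.2) at 90 min and 59.3 to 77.7 CPM (median 68.3) at 180 min. The 90 min libraries lie wholly below those at 45 min, and the step had the smallest adjusted p of the members (-1.03, SE 0.11, adjusted p = 1.69e-08, lower in 4 of 4 replicates). The RING-type ubiquitin ligase genes RHA2B (-0.69) and AT1G20823 (-0.62) and the receptor-like kinase gene PXC1 (-0.48) were called lower as well. FMO1, a flavin monooxygenase of systemic immunity, went the other way: it held 3.5 to 7.39 CPM at 45 min and 8.05 to 12.6 CPM at 90 min, and was the 1 member called higher (0.74, SE 0.20, adjusted p = 0.0186). At 15 min, d was 0.8 or more in 13 members, against 4.0% of expressed genes, among them WRKY46, AT1G77640 (2.11), AT4G27657 (2.05), NUDT21 (2.03), AT1G51920 (1.71), MSS3 (1.69) and LECRKA4.1 (1.61). The rule allows any value above -0.3 there, so these genes passed a peak and ended below where they began. The heat shock protein genes HSP70 and Hsp70-2 had d of -1.29 and -0.83, and HSP70 had 232 and 246 CPM in replicates 1 and 2 at 0 min but 108 and 102 CPM in replicates 3 and 4.

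Another 41 members have no role assigned here. AT3G55677, of the plant self-incompatibility protein family, had the lowest d of all, -2.09, with 4.81, 10.9, 11.6 and 13.9 CPM at 0 min and 0.0 to 3.46 CPM (median 1.80) at 180 min. AT1G65484 (-1.84) and AT1G65486 (-1.57), uncharacterized neighbours, AT3G53830 (-1.64), AT1G78990, an acyltransferase family gene (-1.35), and the abundant AT2G28570 (mean 305 CPM) and AT3G13435 (mean 236 CPM) are among them. AT3G12900, annotated as an oxygenase family gene and in the iron uptake list, had d of -0.88, and its 0 min libraries ran from 2.14 to 21.4 CPM. In all, 13 members lie next to another member, in 7 adjacent pairs, WAKL4 with WAKL5 and MLO12 with AT2G39210 and PLP6 among them. Of the 27 members that overlap another gene, 24 do so on opposite strands, and in 17 the partner holds over 10% as many reads as the member. These include SMR5, LNK3, RHM1, PPa2, MLO12, CRK11, NF-YB2, HSFB2B and, on the same strand, CYCD3;1, whose partner holds 18840 reads to its 3783. At the edges of the rule, TCP9 (-0.806), LACS2 (-0.802) and HB40 (-0.801) were just inside the threshold at 180 min, and PAL1, AT5G06980 (-0.795) and HVA22D (-0.79) just outside. At 15 min ANT (-0.297), AT1G61480 (-0.294) and AT4G16980 (-0.292) were just inside, and FD1 (-0.302), AT1G67360 (-0.303) and AT1G11300 (-0.315) just outside. For mean CPM, TBL4 (2.25), AT1G20990 and AT5G66800 (2.33 each) were just inside, and AT2G40250 (1.97), AT1G71480 (1.74) and CRK40 (1.61) just outside.

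The step from 45 to 90 min was tested as the average of both concentrations. No threshold of the rule was set on it, but it lies inside the span over which every member must fall. Lower levels of members across it are in part built in. How much of the excess of lower members over all genes comes from the rule was not tested. Members called by edgeR at an adjusted p of 0.05 over 18768 genes numbered 33, of which 32 were lower (25.4%) and 1 higher, where 6.12% of all genes tested were called, 3.3% lower and 2.82% higher. The median log2 fold change was -0.33 in members and -0.001 in all genes, and 105 of 126 members (83.3%) were below 0, against 50.3% of all genes. By the mean over both concentrations in each replicate, 28 of the 32 were lower in all 4 replicates. Over all members 48 (38.1%) were, against 10.6% of expressed genes. The same libraries gave the calls, so agreement of replicates in called members, ASPGB1 and MSS3 among them, describes the calls and is no separate support. Of the members called lower, the most negative estimates were AT2G36630, NADP-ME1, WRKY46, AT1G65486 (-1.03), MSS3 and PME41, and the smallest were LNK2 (-0.32, SE 0.10), EXPA6, AT2G39210, XLT2, PPa2 and FAR4. Cell wall genes gave 6 of the 32, and the 4 groups of transcription factors, lipid and suberin, nitrogen and transport, and signalling and defence gave 4 each, as did the genes with no role assigned. By replicate number the median step was -0.22, -0.33, -0.32 and -0.34. Without replicate 2, 3 or 4 the calls went down to 16, 17 and 21, and without replicate 1 they were 36. Without the library of replicate 4 at 45 min on 1 mM KNO3, 29 were called, and 7 of the 33 were not among them: LNK2, EXPA6, XLT2, PPa2, PLP6, ANT and NADP-ME1. With the replicate number as a block, 46 members were called, and 1984 of all genes in place of 1149. In 12 members the call held under every alternative run: AT2G36630, WRKY46, MSS3, NLP3, AT2G28570, ASPGB1, RHA2B, GLN1;4, GH9B8, AT1G20823, XPL1 and EXPA15. LNK2, EXPA6 and PLP6 lost it under 6 alternatives each and FMO1 under 3.

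**Figure D4:**
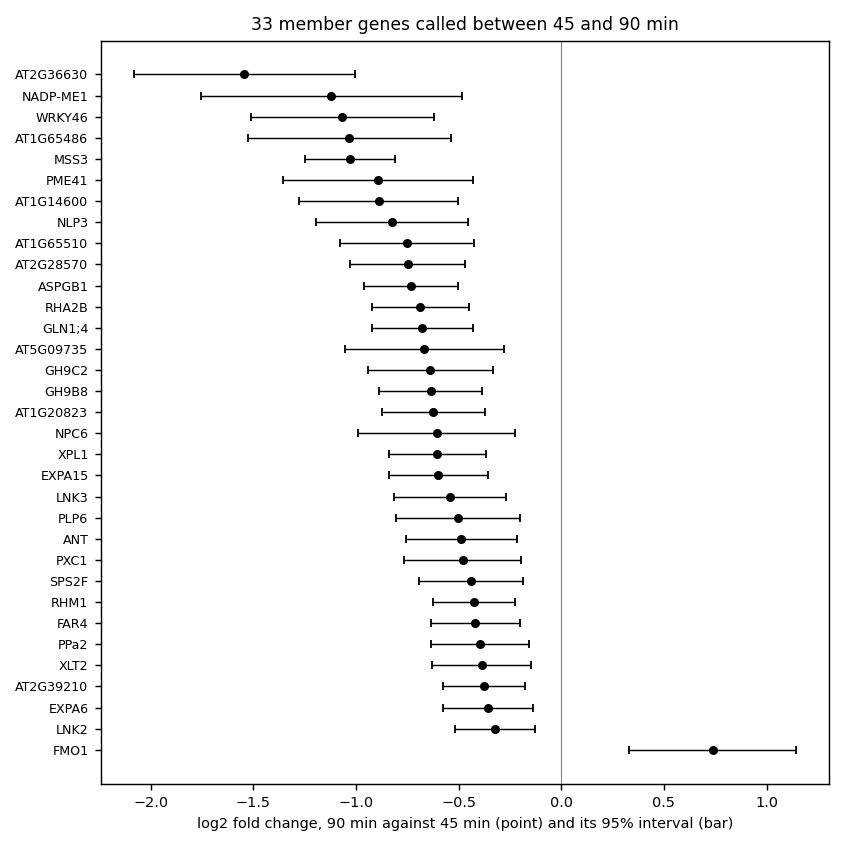
Log2 fold change of 90 against 45 min (average of 1 and 10 mM KNO3, edgeR) with its 95% interval for the 33 members called at an adjusted p of 0.05. FMO1 alone lies above 0, at 0.74, and the rest run from -1.54 (AT2G36630) to -0.32 (LNK2).

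Supplying 10 mM in place of 1 mM KNO3 did not give a called difference in any member. edgeR's quasi-likelihood test called 0 of 126 members at 15, 45, 90 or 180 min, where 0.0% of all genes were called, 0 on the average over the 4 times, where 0.016% were, and 0 for a difference that changes over time (0.0%). At an unadjusted p of 0.05, 5, 7, 11 and 5 members passed at 15, 45, 90 and 180 min, against 2.59%, 4.88%, 4.65% and 1.97% of all genes, with 12 on average (4.81% of all genes) and 1 for the change over time (2.16%). With the replicate number as a block, 7, 13, 15 and 9 members passed at an unadjusted p of 0.05 at the 4 times, 23 on average and 5 for the change over time. No member was called with the block, while 2, 0, 9 and 0 of all genes were called at the 4 times and 44 on average. DESeq2 also called 0 members in each, with 4, 7, 9, 4, 12 and 1 at an unadjusted p of 0.05, and gave no adjusted p for 31 members on the average. For the block and DESeq2 fits the share of all genes at an unadjusted p of 0.05 is not given here. Those member counts therefore cannot be read as an excess over all genes. The median difference in members was 0.01, 0.02, 0.08 and 0.05 on the log2 scale at the 4 times, and 0.03 on average. The 95% intervals reached 0.50 to 0.55 to either side in the median member at a single time and 0.27 on average. Smaller differences could not be told from 0 in the median member. The intervals are not adjusted over the genes tested, so a call takes a larger difference than they do. In data simulated with known changes between concentrations at 180 min, 30% of 1.5-fold and 68% of 2-fold changes were called. The tests do not show that the concentrations act alike.

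At 180 min the interval lay within 1 log2 unit of 0 in 90 of 126 members. LNK2 had 33.2 ± 3.33 CPM on 1 mM and 41.6 ± 4.25 CPM on 10 mM KNO3 (SD, n = 4 each), a difference of 0.31 with an interval from 0.02 to 0.59 and an adjusted p of 1.0 in the edgeR fit. GH9B8 had 21.8 ± 1.69 and 26 ± 2.73 CPM (difference 0.25, interval -0.14 to 0.64), ASPGB1 22.0 ± 5.81 and 17.8 ± 0.979 CPM (-0.28, -0.62 to 0.06), and TT4 233 ± 52.2 and 275 ± 66.6 CPM (0.23, -0.12 to 0.58). The interval spans 0 for GH9B8, ASPGB1 and TT4 and narrowly excludes it for LNK2, before adjustment over the genes tested. On the average over the 4 times, LNK3 had the smallest adjusted p (difference 0.34, SE 0.10, interval 0.14 to 0.53, adjusted p = 0.452), followed by NF-YB2 (0.25) and AT2G36630 (-0.53, interval -0.91 to -0.14). HAK5 had differences of 0.09 at 15 min (interval -0.76 to 0.94), -0.24 at 45 min (-1.08 to 0.60), 0.73 at 90 min (-0.12 to 1.59) and 0.51 at 180 min (-0.47 to 1.48), and each interval spans 0.

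**Figure D5:**
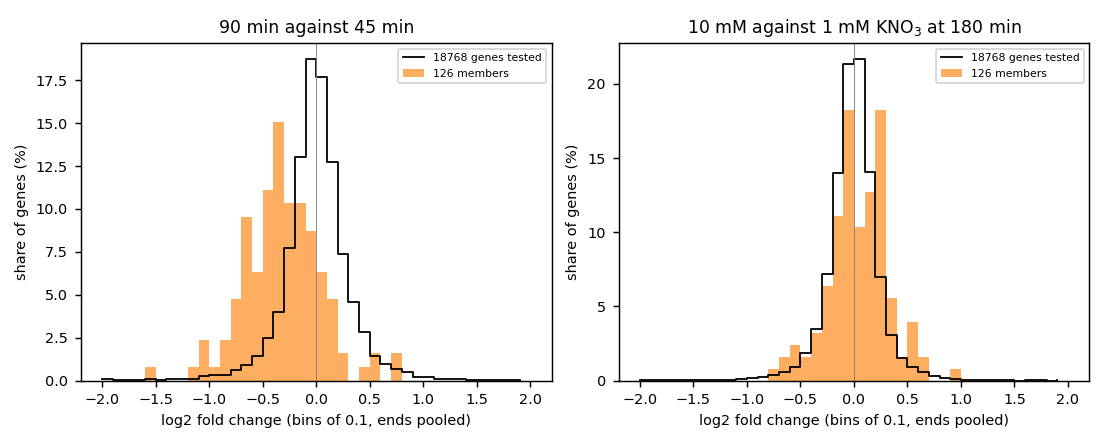
Share of genes in bins of 0.1 log2 fold change for the 126 members (bars) and all 18768 genes tested (line), for 90 against 45 min (left) and 10 against 1 mM KNO3 at 180 min (right). On the left the members lie below all genes, with medians of -0.33 and -0.001, a shift that the rule in part builds in. On the right both centre near 0, with medians of 0.05 and -0.002.

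Other lists gave these counts for the step from 45 to 90 min, in which 3.3% of all genes tested were called lower and 2.82% higher. In the nitrate response list 6 of 18 genes tested were called lower, and in the low nitrogen list 2 of 5, NRT2.4 (-0.92) and NRT2.5 (-3.61). NRT2.4, one of the genes left out by the rule, had d of -1.99 at 180 min. In the iron uptake list 2 of 14 were called higher, and IRT1, also left out, had d of -2.24 at 180 min. In the light signalling list, which holds ELIP1 and ELIP2, 1 of 13 was called higher, LZF1 (0.46). In the phosphate starvation list, which holds MGD2, 2 of 12 were called higher. Called higher were also 3 of 10 genes in the sulfate, 2 of 8 in the indole glucosinolate, 2 of 11 in the aquaporin and 2 of 19 in the root hair list. Called lower were 2 of 10 in the cold and dehydration and 1 of 15 in the auxin carrier list. In the gibberellin and brassinosteroid list 0 of 9 were called. The evening clock list had 0 of 8 called and a median d of 0.53 at 180 min. The nitrate response list holds no member, and its median d at 180 min was 0.47, so its genes were mostly not lower then. That median was -0.97 in the low nitrogen, 0.28 in the iron uptake, -0.45 in the light signalling and -0.37 in the phosphate starvation list. These medians are over list genes with a mean of at least 2 CPM.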

How the data were processed

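Poly-A RNA of Arabidopsis roots was sequenced in 36 libraries by BrAD-seq, which tags the 3' ends of transcripts. What the authors deposited is a table of unnormalized counts for each library, with 1 row per gene. Per the submitters' processing notes, build TAIR10 and the tools FastQC, Bowtie2, SAMtools and HTSeq were used; their versions, settings and strandedness are not given here in any source. Gene symbols come from RefSeq TAIR10.1, where 32548 of 32833 identifiers matched by locus tag, and promoter coordinates are of that assembly.

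CPM is each count times 1e6 over the library total, and d uses a pseudocount of 1. The members, lists and tests were chosen with earlier results of these data known. Tests used edgeR 4.0.16 (R 4.3.3) on the deposited counts, with TMM scaling, filterByExpr (18768 genes, all 126 members among them), 1 coefficient per group over all 36 libraries, two-sided, with Benjamini-Hochberg adjustment over all genes tested. The genes named are the 12 with the lowest d at 180 min, the 6 with the highest mean CPM, up to 6 called members with the largest and the smallest fold change per comparison, members of the lists, members with a role, and the genes at the edges of the rule. MLO12 neighbours, the genes high at 15 min and a few genes with no role were chosen after their values were seen.

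Replicate numbers come from the sample titles. They were taken to pair samples across groups in the replicate block and in the counts by replicate. The fit behind the printed SE and intervals has no replicate term. Its common coefficient of variation in edgeR was 17%, against 12.1% with the block. Deviations from group means of same-numbered libraries correlated at a median of 0.246 (-0.043 to 0.478, 120 of 144 pairs over 0.1). No label says whether replicates came from separate cultures, so p-values reflect the spread among these libraries, which may be technical. No 2 replicates agreed within sampling noise (chi-square per degree of freedom 2.62 to 11.55 over 54 pairs). The fits were tested on simulated data. Alternatives were RLE scaling, no filter, DESeq2 1.42.0, the replicate block, only the libraries compared, leaving out libraries, and other settings of the rule.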

Additional observations from a re-analysis of the deposited data

Results flagged for a closer look

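Each group of 4 libraries was checked for a lowest or highest value that stands far from the rest in 27 members and in the median of all 126 members, 252 groups in all, and 19 values were singled out; chance singles out about 1 in 20 groups. Values are CPM, and the range of the other 3 libraries of the group follows each. In LNK2 at 45 min, replicate 4 on 1 mM KNO3 had 108 (72.1 to 78.1) and replicate 3 on 10 mM had 103 (77.2 to 78.1). GH9B8 had 55.1 in replicate 1 at 90 min on 10 mM (69.4 to 70.4). EXPA15 had 179 in replicate 2 at 15 min on 10 mM (140.0 to 144).

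Replicate 1 was high in XPL1 at 0 min, with 404 (255 to 275), and at 15 min on 10 mM, with 325 (222 to 238). It was also high in HAK5, with 31.4 at 15 min on 10 mM (11.0 to 13.8), 42.8 at 45 min on 1 mM (11.6 to 16.7) and 10.7 at 180 min on 1 mM (4.67 to 5.22). WRKY46 had 173 in replicate 1 at 15 min on 1 mM (102 to 111). MSS3 had 530.0 in replicate 1 at 15 min on 1 mM (422 to 429) and 195 at 45 min on 1 mM (118 to 129), but a low 59.3 at 180 min on 10 mM (67.5 to 68.7).

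Low values of replicate 1 were 6.95 for FMO1 at 0 min (10.1 to 10.4), 4.16 for AT3G55677 at 45 min on 10 mM (5.42 to 5.62) and 65.3 for HSP70 at 45 min on 1 mM (127 to 139). FMO1 had 11.1 in replicate 3 at 90 min on 1 mM (8.05 to 8.35). AT2G36630 had 0.776 in replicate 4 at 180 min on 10 mM (1.61 to 1.73). HSP70 had 181 in replicate 2 at 90 min on 10 mM (68.1 to 84.9).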

How the results depend on the processing

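The step from 45 to 90 min gave 33 called members, 34 with RLE scaling, 29 with no filter, 36 with DESeq2, 25 with only the libraries compared, and 29 without replicate 4 at 45 min on 1 mM KNO3. Leaving out 1 replicate of every group gave 16 to 36. With the replicate block it gave 46, all 33 among them and 45 lower, while calls over all genes went from 1149 to 1984. Of the 33, 12 were called under every alternative, and no fold change turned its direction. With 10 mM against 1 mM, 0 members were called in each of the 6 comparisons under every alternative; the smallest adjusted p was 0.452 on the average over times, 0.204 with DESeq2 and 0.0677 with the block, which ended or reversed no call. The joint test over times with only the libraries compared was not run.

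The rule gave 92 to 141 members with pseudocounts of 2 and 0.5, and 116 to 139 with 1 replicate left out. A threshold at 180 min of -1 gave 44 and of -0.6 gave 316, and a threshold at 15 min of 0 gave 54. Members at -0.8 by 45 min were 13, and 8 and 20 with those pseudocounts, 32 on 1 mM libraries alone, and 9 to 24 with 1 replicate left out. Depth and 4 libraries a group limit small differences, with a median interval of 0.55 to either side at 180 min in the fit with no replicate term. The cause of these shifts was not tested.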
